A study of Sus scrofa with 5 samples.

Results

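Among the 3 bulk RNA-seq libraries of porcine embryonic stem cells (pESCs), the column named IVFP25 was set against the columns named PA_4P7 and PAP25. The genes called members here had at least 3 times more, or 3 times less, signal in IVFP25 than in each of the other libraries, with at least 1 FPKM on the high side. FPKM is a level in sequenced fragments scaled by transcript length and by the number of mapped fragments, and it was summed over the transcripts of a gene symbol. Where 3 values follow each other without column names, they belong to IVFP25, PA_4P7 and PAP25 in this order. Of 29886 genes in the table, 12291 reached 1 FPKM in a library. Of these, 46 were higher in IVFP25, which is 0.374% of the genes, and 43 were lower, which is 0.350%. The choice rests on these same values, so the differences below are a description with no test, and with 1 library against 2 the IVFP25 side has no replicate check.

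The study made blastocyst-like structures (blastoids) from pESCs. The sample labels list 3 pESC lines, pESC-1 to pESC-3, and give neither a fertilized nor a parthenogenetic origin nor a passage number, so none of the columns could be tied to a labelled line. In the methods the pESCs come from parthenogenetic (PA) blastocysts and grow in 4FIXY medium, a Neurobasal and DMEM/F12 base with activin A, IGF1, IL-6, its soluble receptor, XAV939, IWR1 and Y-27632, on mitomycin C-treated mouse embryonic fibroblasts. IVF usually abbreviates in vitro fertilization, but that reading of the column name, and any difference in passage between the columns, is not given by the labels. Day 6 blastoids in iBlastoid medium, sequenced as 2 single-cell libraries, served as another readout of the same genes.

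Imprinted genes are expressed from the chromosome copy of 1 parent only, because DNA methylation set in the egg or the sperm differs between the copies. A parthenogenetic embryo is made from an activated egg without sperm and carries maternal chromosome copies only. Genes read from the paternal copy are therefore known to be silent or low in parthenogenetic cells, and genes read from the maternal copy can be higher there. Which genes are imprinted differs somewhat between mammals, and the lists used here come from genes known in mammals in general.

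The sequences just before the start of 4 paternally expressed members and of the member furthest below the other libraries are printed to show the CpG sites, the positions at which DNA methylation is placed. They were read 5′ to 3′ on the strand of the gene from Sscrofa11.1 (susScr11), with gene starts from the RefSeq annotation, and the capitals mark CG. *NDN* was read at chr1:142412388-142412687 on the plus strand, *NAP1L5* at chr8:130364266-130364565 on the plus strand and *GSTM3* at chr4:110329727-110330026 on the plus strand, each over 300 bases. The window of *PEG10*, chr9:74473905-74474120 on the plus strand, is the whole gap of 216 bases between its start and the start of *SGCE* on the other strand. The window of *PEG3*, chr6:61307789-61307883 on the minus strand, ends after 95 bases at an exon of another gene.
NDN: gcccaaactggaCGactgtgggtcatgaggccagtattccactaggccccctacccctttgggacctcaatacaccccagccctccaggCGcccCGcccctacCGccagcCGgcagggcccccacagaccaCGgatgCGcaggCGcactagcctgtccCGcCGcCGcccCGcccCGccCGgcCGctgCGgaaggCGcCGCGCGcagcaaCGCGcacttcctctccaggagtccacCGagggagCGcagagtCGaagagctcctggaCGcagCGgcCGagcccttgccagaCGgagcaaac
NAP1L5: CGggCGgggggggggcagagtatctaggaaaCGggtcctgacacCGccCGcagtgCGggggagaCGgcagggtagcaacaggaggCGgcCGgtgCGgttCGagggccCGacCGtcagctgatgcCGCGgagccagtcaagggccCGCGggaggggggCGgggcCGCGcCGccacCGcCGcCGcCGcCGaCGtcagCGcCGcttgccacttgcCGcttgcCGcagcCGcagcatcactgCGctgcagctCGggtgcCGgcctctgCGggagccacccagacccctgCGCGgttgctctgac
PEG10: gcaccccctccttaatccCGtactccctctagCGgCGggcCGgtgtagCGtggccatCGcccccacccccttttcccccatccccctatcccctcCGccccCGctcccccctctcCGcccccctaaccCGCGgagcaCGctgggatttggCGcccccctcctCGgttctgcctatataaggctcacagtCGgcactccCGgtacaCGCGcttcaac
PEG3: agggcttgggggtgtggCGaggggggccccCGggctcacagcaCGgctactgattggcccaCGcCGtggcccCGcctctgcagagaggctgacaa
GSTM3: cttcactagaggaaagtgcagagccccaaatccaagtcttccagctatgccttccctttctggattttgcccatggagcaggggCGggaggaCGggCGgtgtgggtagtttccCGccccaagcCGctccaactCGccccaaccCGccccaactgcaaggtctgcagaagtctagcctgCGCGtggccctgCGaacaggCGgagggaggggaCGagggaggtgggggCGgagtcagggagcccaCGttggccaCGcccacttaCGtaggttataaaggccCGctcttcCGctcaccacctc
The windows held 29 CpG sites for *NDN*, 38 for *NAP1L5*, 18 for *PEG10*, 6 for *PEG3* and 18 for *GSTM3*. An observed to expected CpG ratio of at least 0.6 over 300 bases before the start was found for 8 of the 11 paternally expressed members (72.7%), against 73.2% of all genes at 1 FPKM. Among the other higher members with a window, 13 of 33 (39.4%) reached that ratio, and among the lower members 17 of 41 (41.5%). The letters say nothing of the methylation in these cells, which was not measured.

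Of 25 measured genes of core and primed pluripotency, 23 reached 1 FPKM in all 3 libraries. *POU5F1* ranged from 432 to 639 FPKM and *LIN28A* from 455 to 547 FPKM, while *NODAL* (0.345, 1.19 and 0.395 FPKM) and *SOX3* (0.267 to 0.427 FPKM) were under 1 FPKM in at least 1 library. None of the genes on the core and naive pluripotency lists was a member. Only 0.374% of all genes were higher and 0.350% lower, so a list this short would mostly hold none. The same holds for the other lists without a member below. Of 25 measured markers of fibroblasts, the feeder cell type, 14 reached 1 FPKM in all libraries and none was a member, and their summed levels were 289, 324 and 236 FPKM. The highest were *MMP2* (60.6 to 81.3 FPKM), *FBLN1* (69.5 to 79.1 FPKM), *VIM* (28.6 to 60.6 FPKM) and *TAGLN* (14.6 to 52.7 FPKM), the collagen gene *COL1A1* had 3.6 to 4.47 FPKM, and *POSTN* was listed at 0 in all. The feeders are mouse cells and the reads were mapped to the pig genome, so these levels do not measure feeder content. The median gene was 1.17 times apart between IVFP25 and either other library, and 1.15 times apart between PA_4P7 and PAP25, over 11061 genes at 1 FPKM in all libraries. At least 3-fold apart were 236 genes (1.92%) between IVFP25 and PA_4P7, 422 (3.43%) between IVFP25 and PAP25, and 415 (3.38%) between PA_4P7 and PAP25. The count between the PA-named libraries lay within the range of their counts against IVFP25, and only the genes past the limit against both are members.

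**Figure D1:**
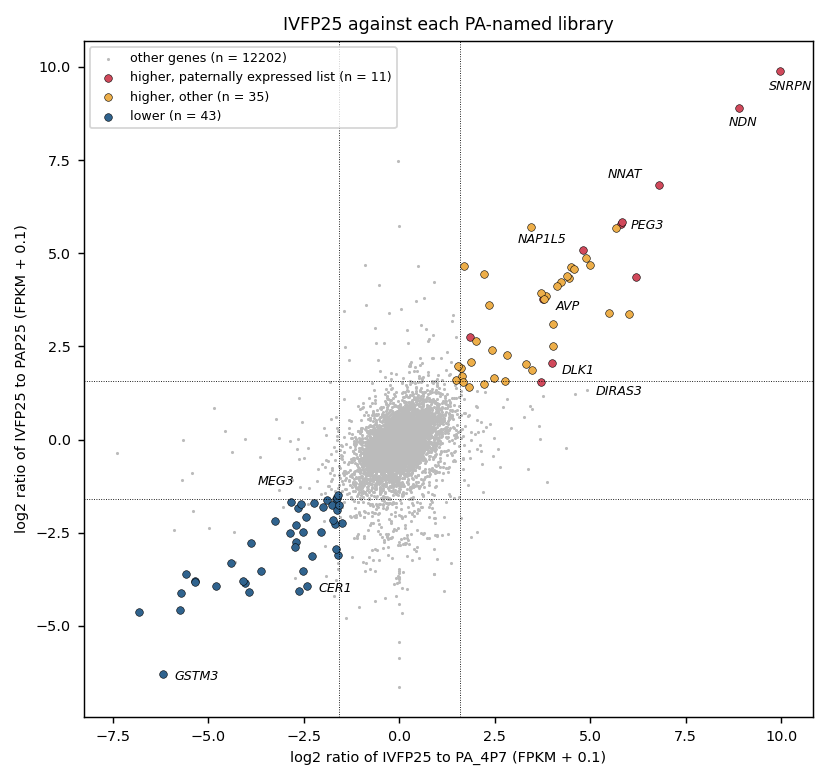
Each point is a gene with at least 1 FPKM in a library, with its log2 ratio of IVFP25 to PA_4P7 on the x axis and to PAP25 on the y axis, both after adding 0.1 FPKM, and the dotted lines mark 3-fold. The 46 higher members lie at the upper right, led by *SNRPN* and *NDN*, the 43 lower members at the lower left, led by *GSTM3*, and a column of grey points runs down the middle where PAP25 alone was high.

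The paternally expressed genes led the higher members. Of 30 genes on that list 26 were in the table and 20 reached 1 FPKM, and 11 of these were higher in IVFP25 and none was lower. Their share stands beside the 0.374% of all genes that were higher. The median log2 ratio of IVFP25 to the mean of the PA-named libraries was 2.25 over the 20 genes and -0.06 over all 12291. It was 3.74 against PA_4P7 alone and 2.33 against PAP25 alone. Of the 20 genes, 10 reached 1 FPKM in IVFP25 only and so entered these medians through that library. Over all 26 measured genes, with no limit on level, the median was 0.86.

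The highest of the 11 members was *NNAT*, which encodes a small membrane protein of the endoplasmic reticulum, on chromosome 17 (40625990 to 40629523). It had 237 FPKM in IVFP25 against 2.04 in PA_4P7 and 1.99 in PAP25. That is 116 and 119 times more in IVFP25. *NNAT* lies within the span of *BLCAP*, which is also on the paternally expressed list and had 16.6 FPKM in IVFP25 against 17.4 in PA_4P7 and 18.7 in PAP25. The surrounding gene was thus at a like level in all 3 libraries.

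*SNRPN*, which encodes a protein of the spliceosome and belongs to the domain lost in Prader-Willi syndrome, had 100.45 FPKM in IVFP25 and 0.00688 FPKM in PAP25, and PA_4P7 listed it at 0. It lies on an unplaced scaffold in this assembly. The other 3 genes of that scaffold with any signal above 0.5 FPKM were also members: *LOC110258914*, of unknown function, had 2.85 FPKM in IVFP25, and the proline-rich protein-like genes *LOC110258915* and *LOC110258916* had 2.01 and 2.30 FPKM. All 3 were listed at 0 in both PA-named libraries. The overlapping *SNURF* had 0.0580 FPKM in IVFP25 and was listed at 0 in the others, and reads of the shared exons can be assigned to either gene.

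The other genes of that domain known from mammals lay on chromosome 1 in a row. *NDN*, a growth suppressor of the MAGE family (142412688 to 142413665), had 47.7 FPKM in IVFP25 and was listed at 0 in PA_4P7 and PAP25. *MAGEL2*, a MAGE protein that works with a ubiquitin ligase, lies 36.7 kb further on and had 7.23 FPKM in IVFP25 and 0.253 FPKM in PAP25, with PA_4P7 at 0. *MKRN3*, a ring finger protein known to restrain puberty, lies another 37.5 kb beyond and had 1.27, 0.00418 and 0.371 FPKM. All 3 were thus at or near 0 in PA_4P7, and *MAGEL2* and *MKRN3* had some signal in PAP25. *UBE3A*, which is on the maternally expressed list and lies before *NDN* on the same chromosome, had 21.0, 24.5 and 21.7 FPKM and was no member. Whether it is imprinted in these cells was not tested.

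A second row was *SGCE* and *PEG10* on chromosome 9, which start 216 bases apart on opposite strands. *PEG10*, a gene derived from a retrotransposon and required for the placenta, had 5.47 FPKM in IVFP25, and *SGCE*, a sarcoglycan of the cell membrane, had 1.26 FPKM. Both were listed at 0 in PA_4P7 and PAP25. The nearest genes at 1 FPKM on either side were not members. *CASD1* had 4.13 FPKM in IVFP25 against 4.6 in PA_4P7 and 4.49 in PAP25, and *PPP1R9A*, which is on the maternally expressed list, had 2.38, 2.66 and 2.73 FPKM.

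*PEG3*, a zinc finger protein on chromosome 6 (61281931 to 61307788), had 5.60 FPKM in IVFP25 and was listed at 0 in the others. *NAP1L5*, a nucleosome assembly protein on chromosome 8 (130364566 to 130365464), had 7.69 FPKM in IVFP25 against 0.178 in PA_4P7 and 0.129 in PAP25, which is 43.2 and 59.7 times more. It lies within the span of *HERC3*, which was lowest in IVFP25 with 4.98, 10.9 and 8.83 FPKM. The zinc finger gene *PLAGL1*, a growth regulator on chromosome 1, had 2.93, 0.735 and 0.348 FPKM, 3.99 and 8.43 times more in IVFP25 with signal in all 3 libraries.

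**Figure D2:**
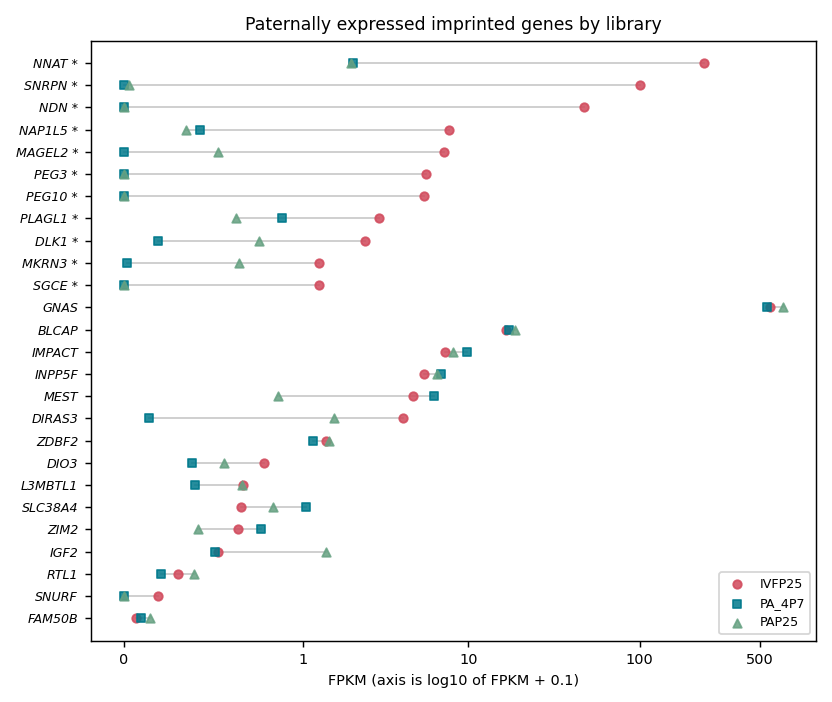
FPKM of the 26 measured paternally expressed genes (rows) in IVFP25 (circles), PA_4P7 (squares) and PAP25 (triangles), on an axis of log10(FPKM + 0.1). Asterisks mark the 11 members, of which *PEG3*, *PEG10*, *SGCE* and *NDN* sit at 0 in both PA-named libraries, whereas *GNAS*, *BLCAP*, *IMPACT* and *INPP5F* have their 3 points close together.

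The 9 other genes of the list that reached 1 FPKM were *DIRAS3*, *MEST*, *GNAS*, *BLCAP*, *IMPACT*, *INPP5F*, *ZDBF2*, *IGF2* and *SLC38A4*. *DIRAS3*, a small GTPase, missed the limit with 4.12 FPKM in IVFP25 against 0.0397 in PA_4P7 and 1.57 in PAP25, 2.62 times more than in PAP25. *IGF2*, the embryonic growth factor, had 0.254, 0.240 and 1.41 FPKM and was thus highest in PAP25. *MEST* was highest in PA_4P7, with 4.70, 6.26 and 0.692 FPKM. *SLC38A4* reached 1 FPKM in PA_4P7 only and was lowest in IVFP25. The genes *IMPACT*, *INPP5F* and *ZDBF2* were less than 1.5-fold apart across the libraries.

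*GNAS* and *MEST* make some of their transcripts from separate promoters, of which only some are imprinted. As a gene, *GNAS* had 572 FPKM in IVFP25 against 554 in PA_4P7 and 686 in PAP25. Its 3 transcripts annotated as noncoding RNA differed from that sum. The first of them had 11.7 FPKM in IVFP25 against 0.255 in PA_4P7 and 0.252 in PAP25. The other two had 4.90 and 5.73 FPKM in IVFP25 and were listed at 0 in both PA-named libraries. A single *MEST* transcript had 2.61 FPKM in IVFP25 and was listed at 0 in both others. At the level of transcripts the same rule picked 9.44% of those at 1 FPKM (1260 higher and 903 lower), so such a call carries little weight for a transcript taken alone.

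The *DLK1* domain on chromosome 7 held members in both directions. *DLK1*, a paternally expressed ligand related to those of Notch (121565844 to 121577493), had 2.43 FPKM in IVFP25 against 0.0572 in PA_4P7 and 0.508 in PAP25. The maternally expressed noncoding RNA *MEG3*, which starts 90.4 kb after it, ran opposite, with 2.61, 13.97 and 6.60 FPKM. It was 5.36 times higher in PA_4P7 and 2.53 times higher in PAP25, and so missed the limit against PAP25. Further along the same strand, 254 kb from *DLK1*, the long noncoding RNA *LOC110261648* (121820142 to 121844012) was a lower member, with 0.739, 7.97 and 3.71 FPKM. In each of the PA-named libraries the order was thus *DLK1* low with both noncoding RNAs high, more so in PA_4P7. *LOC110261647*, between *MEG3* and *LOC110261648*, had 0.240, 1.40 and 0.492 FPKM. None of the genes before *DLK1* was a member, and *YY1*, a transcription factor gene among them, had 25.3, 29.7 and 28.0 FPKM.

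**Figure D3:**
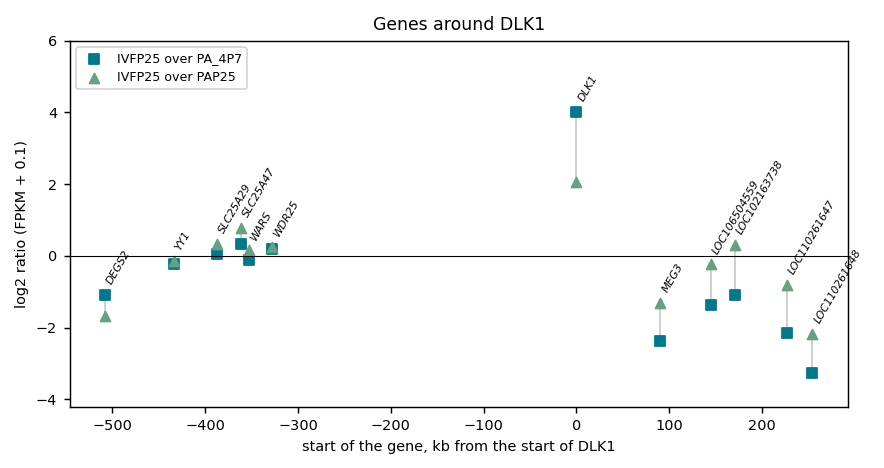
Genes around *DLK1* with at least 0.5 FPKM in a library, by the distance of their start from the start of *DLK1* in kb along the chromosome (x axis), with the log2 ratio of IVFP25 to PA_4P7 (squares) and to PAP25 (triangles) after adding 0.1 FPKM. *DLK1* lies above 0 at 4.01 and 2.06, *MEG3* below 0 at -2.38 and -1.31 and *LOC110261648* at -3.27 and -2.18.

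The list of maternally expressed genes, which includes *MEG3*, had no member, beside 0.374% of all genes higher and 0.350% lower. Of its 17 measured genes, 13 reached 1 FPKM, and their median log2 ratio was -0.15 against -0.06 over all genes. *CDKN1C*, an inhibitor of the cell cycle, had 24.3 FPKM in IVFP25 against 25.5 in PA_4P7 and 27.1 in PAP25. *IGF2R*, the receptor that clears IGF2, had 40.1, 49.9 and 39.0 FPKM.

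Outside the imprinted lists 35 genes were higher, of which 20 have provisional LOC symbols. *AVP*, which encodes the hormone vasopressin, on chromosome 17 (32581234 to 32583145), had 17.2 FPKM in IVFP25 against 1.10 in PA_4P7 and 1.09 in PAP25, 15.6 and 15.8 times more. The noncoding *LOC110257451* on the opposite strand overlaps it and was also a member, with 1.94, 0.0258 and 0.138 FPKM. Whether strand was used in counting is not given in the sources used here, so the reads of this pair cannot be told apart. *OXT*, the related oxytocin gene 24.4 kb away, had 0.666, 3.0 and 1.10 FPKM and was not higher in IVFP25.

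*BARX1*, a homeobox transcription factor, had 6.91 FPKM in IVFP25 against 0.331 in PA_4P7 and 1.12 in PAP25. The calcium-binding protein gene *S100A6* had 16.1, 5.20 and 4.23 FPKM, and *SFN*, the epithelial 14-3-3 protein sigma on the trophectoderm list, had 4.92, 1.62 and 1.18 FPKM. *SFN* was the only member on that list of 22 measured genes, 13 of which reached 1 FPKM, beside the 0.374% of all genes that were higher. The 13 genes had a median log2 ratio of -0.01 to the mean of the PA-named libraries, 0.33 to PA_4P7 alone and 0.08 to PAP25 alone. *TCEAL2*, on the X chromosome, had 12.3, 3.74 and 0.390 FPKM, with PA_4P7 nearer to IVFP25 than to PAP25 as a ratio.

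*TMEM223* had 31.1 FPKM in IVFP25 against 3.03 in PA_4P7 and 7.51 in PAP25, and *MRPL53*, of the mitochondrial ribosome, had 8.59, 1.77 and 0.302 FPKM. Both have exons that overlap those of other genes. The partner of *TMEM223*, the RNA export factor *NXF1*, had 19.6, 24.7 and 25.9 FPKM, and *CCDC142*, which overlaps *MRPL53*, had 8.0, 11.2 and 12.3 FPKM, each lowest in IVFP25. The other partner of *MRPL53*, *TTC31*, had 1.77, 1.32 and 1.92 FPKM. Over all members 12 of the 46 higher genes (26.1%) and 6 of the 43 lower ones (14.0%) shared exon bases with another gene, against 24.6% of all genes at 1 FPKM.

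Several of the LOC members are copies of other genes, and reads of near-identical copies can be assigned to any of them. Pseudogenes of *CHCHD2*, a mitochondrial protein, account for 3 of the higher members: *LOC100513317* had 8.90 FPKM in IVFP25, *LOC110258184* had 9.04 FPKM and *LOC110258498* had 11.7 FPKM. In the PA-named libraries they lay between 0.0400 and 3.14 FPKM, while *CHCHD2* itself had 295, 302 and 278 FPKM. The ribosomal protein S27-like *LOC100525613* had 34.7, 4.86 and 7.07 FPKM beside 707, 412 and 563 FPKM for *RPS27*. *LOC110260660*, annotated as protein-coding and as the cytochrome c oxidase assembly factor COX14, had 17.2, 0.439 and 0.573 FPKM. Whether it is a copy of another gene was not tested. Its exons overlap those of *GPD1*, which had 1.02, 1.74 and 2.11 FPKM. Histone genes of chromosome 7 were found on both sides, with *LOC110261483* and *LOC110261675* higher and *LOC110261672* and *LOC100156932* lower. The last of these had the most signal, 2.58, 8.30 and 8.0 FPKM. The 9 LOC genes not named so far had 1.28 to 5.71 FPKM in IVFP25 and at most 0.839 FPKM in the PA-named libraries, and *LOC100739663*, annotated as a metallothionein, is an example with 1.77 FPKM in IVFP25 and 0 in both others.

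The remaining 8 named genes were weak. *VGLL1*, *ADRA2A*, *GBX2*, *VPS37D*, *CRSP-2*, *RIMBP2*, *ACSS1* and *SPIN3* had 1.07 to 2.88 FPKM in IVFP25 and 0.0419 to 0.892 FPKM in the others. Among them *VGLL1*, a cofactor of TEAD transcription factors known from trophectoderm, had 2.63, 0.574 and 0.337 FPKM and *GBX2*, a homeobox factor of the early embryo, had 1.11, 0.240 and 0.355 FPKM.

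The higher members outside the paternally expressed list were often short. Their median transcript length was 1252 bases against 3007.5 for all genes, and that of the 11 paternally expressed members was 4220 bases. The most abundant transcript was under 1000 bases in 17 of the 44 higher members with a length (38.6%), in 6 of 42 lower members (14.3%) and in 8.43% of all genes. Of the paternally expressed members 2 were that short (18.2%), and of the other higher members 15 (45.5%). The transcript had a single exon in 12 of the 44 (27.3%), in 2 of 42 lower members (4.76%) and in 2.03% of all. LOC symbols made up 43.5% of the higher and 32.6% of the lower members against 7.35% of all genes. Unplaced scaffolds held 7 higher members (15.2%), against 1.68% of all genes.

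Most members of either direction were weakly expressed. The highest level in any library had a median of 3.78 FPKM over the lower members and 2.86 FPKM over the higher ones, against 10.2 FPKM over all genes at 1 FPKM. *GSTM3*, a glutathione S-transferase on chromosome 4 (110330027 to 110332957), stood out: it was listed at 0 in IVFP25 and had 7.14 FPKM in PA_4P7 and 7.74 FPKM in PAP25. Its upstream sequence is the last of those printed above. It belongs to a family of similar genes, between which reads can be shared. Of its relatives nearby, *LOC780435* had 2.607, 0.788 and 0.99 FPKM and *LOC110260351* had 1.259, 0 and 0.509 FPKM, highest in IVFP25. *LOC110260350* was also highest there but weak (0.546, 0.401 and 0.304 FPKM). *LOC110260348* ran the other way with 1.499, 2.716 and 3.658 FPKM, and *LOC106510200* had 2.841, 1.438 and 2.825 FPKM. Whether reads of *GSTM3* were assigned to these copies was not tested. *HTATIP2*, an oxidoreductase gene on chromosome 2, was the most abundant of the lower members, with 9.15 FPKM in IVFP25 against 34.1 in PA_4P7 and 28.6 in PAP25.

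*CRYL1*, a sugar dehydrogenase of the crystallin family, had 1.45, 11.2 and 8.75 FPKM, 7.74 and 6.03 times more in the PA-named libraries. *NUDT7*, a peroxisomal enzyme that cleaves coenzyme A, had 1.08, 7.60 and 5.70 FPKM. Its neighbour on chromosome 6, *VAT1L*, lies 41.4 kb away and was also lower, with 0.1, 3.32 and 2.69 FPKM. These 2 genes were the only lower members next to each other within 100 kb. *TSPYL5*, related to a testis-specific protein, had 2.45, 7.47 and 8.51 FPKM, and the noncoding *LOC100513397* was listed at 0 in IVFP25 and had 11.2 and 2.35 FPKM.

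*CER1*, a secreted antagonist of NODAL and BMP made by anterior hypoblast, had 0.830 FPKM in IVFP25 against 4.85 in PA_4P7 and 14.2 in PAP25. The related ligands *FGF8* and *FGF17*, known from the primitive streak, had 0.523, 3.78 and 2.12 FPKM and 0.233, 1.27 and 1.74 FPKM. On the list of FGF and MAPK feedback genes these were the only 2 members of 27 measured, 22 of which reached 1 FPKM, beside the 0.350% of all genes that were lower, and *DUSP6*, a target of the pathway, had 32.6, 32.1 and 38.6 FPKM. *CER1* and *FGF8* were the only 2 members among 22 measured genes of primitive streak and mesoderm, of which 11 reached 1 FPKM, and *CER1* the only member among 21 genes of NODAL and activin signalling, which includes *NODAL* itself. The lower PA-named values of *CER1* and *FGF8* came from different libraries, PA_4P7 for *CER1* and PAP25 for *FGF8*.

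Over its 17 genes at 1 FPKM, the hypoblast list had a median log2 ratio of -1.73 against PAP25 and -0.12 against PA_4P7, and no member. *SOX17*, an endoderm factor, had 1.73 FPKM in IVFP25 against 1.82 in PA_4P7 and 26.1 in PAP25, and the streak gene *T* had 4.41, 3.09 and 40.6 FPKM. The primitive streak list (11 genes at 1 FPKM) had medians of -0.68 and -1.77 against PA_4P7 and PAP25, and the list of BMP and ID genes (16 genes) -0.04 and -1.56. In these 3 lists 5, 5 and 4 genes reached 1 FPKM in a PA-named library only and so entered the medians through it. Over all measured genes the medians against the mean of both libraries were -1.18 for hypoblast, -0.77 for primitive streak and -1.02 for BMP and ID genes. The neural ectoderm list had medians of -0.79 against PA_4P7 and 0.09 against PAP25 over 7 genes, and the germline list -0.82 and -0.06 over 5 genes. Over all 24 measured genes of each, the medians against the mean were -0.34 and 0.00. Among the 30 lists, only the paternally expressed, trophectoderm, primitive streak, NODAL and activin, and FGF lists held members.

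No gene of the primordial germ cell and germline list, 24 of which were measured, was a member. Its 5 genes at 1 FPKM stand beside 0.374% of all genes higher and 0.350% lower. Outside that list, 3 lower members are described that were chosen after their values were seen. *RBM46*, an RNA-binding protein of meiosis, was listed at 0 in IVFP25 and had 3.98 and 1.32 FPKM. The meiotic cohesin gene *REC8* had 0.740, 4.90 and 2.68 FPKM, and *ZPBP2*, of the sperm acrosome, had 0.268, 2.51 and 1.08 FPKM.

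The other 15 lower genes with a name were *B3GNT9*, *NKX6-2*, *AKAIN1*, *NAPSA*, *NXNL2*, *GUCY2C*, *TMEM82*, *SAA4*, *ARHGAP28*, *CA5B*, *NEIL2*, *DMRT3*, *PRCD*, *SEC14L2* and *TRNAK-UUU*. They had 0 to 0.973 FPKM in IVFP25 and 1.02 to 4.95 FPKM in the PA-named libraries. The last is the summed signal of 21 copies of a lysine tRNA gene. *NEIL2*, a DNA repair enzyme, had 0.565, 2.00 and 4.95 FPKM, and *NKX6-2*, a homeobox factor of the neural tube, was listed at 0 in IVFP25 and had 2.67 and 1.41 FPKM. The 10 LOC genes not described one by one had 0 to 0.555 FPKM in IVFP25 and 1.02 to 6.77 FPKM in the others.

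**Figure D4:**
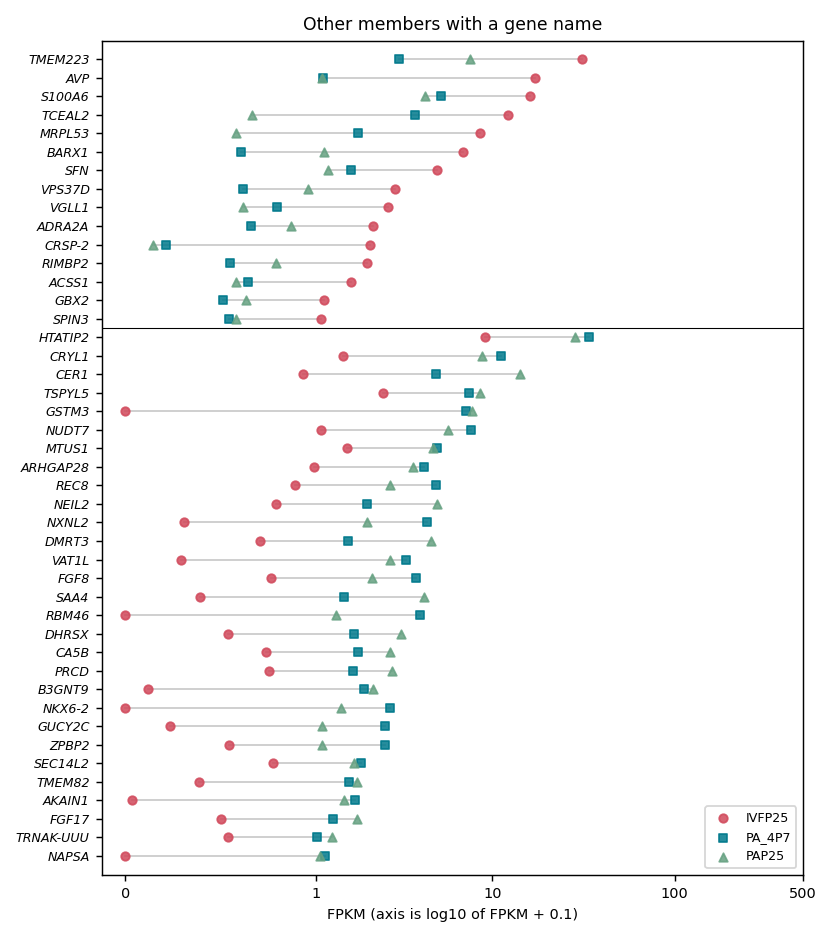
FPKM in IVFP25 (circles), PA_4P7 (squares) and PAP25 (triangles) of the members with a gene name outside the paternally expressed list, 15 higher above the line and 29 lower below it, on an axis of log10(FPKM + 0.1). *TMEM223* and *AVP* lead the upper group, *HTATIP2* the lower one, and the circle of *GSTM3* lies at 0 while its square and triangle nearly coincide.

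Just inside the 3-fold limit were *SFN* (3.04-fold over the nearer library) and *ADRA2A* (3.07-fold) among the higher genes, and *TSPYL5* (3.05-fold) and *MTUS1* (3.07-fold) among the lower ones. Just outside were *OAZ3* (2.96-fold) and the peptide transporter *TAP2* (2.93-fold, with 18.4, 5.56 and 6.27 FPKM) on the higher side, and *KCNK13* (2.96-fold) and *NPY* (2.93-fold) on the lower side. The PA-named libraries were themselves at least 3-fold apart, after adding 0.1 FPKM, for 9 of the 46 higher and 3 of the 43 lower members.

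Over genes at 1 FPKM in all libraries, the median log2 ratio of IVFP25 to the mean of the PA-named libraries was -0.04, and by autosome it ran from -0.15 on chromosome 11 to 0.02 on chromosome 2. The same medians between PA_4P7 and PAP25 ran from -0.04 to 0.10. The X chromosome, with 397 such genes, had a median of -0.06. It held 4 higher and 3 lower members of 448 genes at 1 FPKM in a library. Both directions together were 1.56% of these, beside 89 of 12291 genes in all and 1.31% on chromosome 17, the highest autosome. *XIST* was not among the symbols.

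On the Y chromosome 102 of 134 genes were listed at 0 in all libraries, *SRY*, *EIF1AY* and *AMELY* among them. *DHRSX*, which has a counterpart on the X chromosome in mammals, was a lower member with 0.265, 1.67 and 3.08 FPKM. The other 5 Y genes at 1 FPKM were not members. *LOC100624648*, annotated as the X-linked gene TBL1X, had 14.1, 17.2 and 19.8 FPKM and *LOC110257943*, a PRKY-like gene, had 5.24, 5.23 and 0 FPKM. *LOC110257936*, *LOC110257938* and *LOC110257973* lay between 0.485 and 2.84 FPKM. Reads of a gene with a copy on the X chromosome can be assigned to either copy, so the signal of these genes cannot be tied to a Y chromosome.

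The blastoid libraries gave a readout that the choice of genes did not use. Their 289452283 and 302211552 UMIs (molecules counted by a tag) were summed over all barcodes and scaled to counts per 1000000 UMIs (CPM). Barcodes with at least 10000 UMIs held 88.2% and 87.6% of the UMIs, and 10 of these barcodes occurred in both libraries. Doublets were not removed, since no value was taken per cell. The label of their cell line names porcine ESCs with no further detail, so it is unknown which of the columns, if any, is their source. Intervals here are exact 95% Poisson intervals and cover counting error only.

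Most higher members were low in both blastoid libraries. Of the 11 paternally expressed members 9 (81.8%) were under 0.5 CPM in both, and of the other higher members 20 of 35 (57.1%), against 3.01% of all genes at 1 FPKM in pESCs. Most of the higher members passed 1 FPKM through IVFP25 alone, so these shares are a description. Among 10556 protein-coding genes with IVFP25 levels in the range of the 11 paternally expressed members, 1.26 to 237 FPKM, 155 (1.47%) were as low. They were matched on IVFP25 alone and not on a low level in the PA-named libraries, so this share is not a like comparison. *SNRPN* had 0.104 CPM (0.0699 to 0.148) in library 1 and 0.0927 CPM (0.0616 to 0.134) in library 2, from 30 and 28 UMIs. It overlaps *SNURF*, and a gene that shares exons with another may not be counted fully in such data. *NNAT* had 0.149 CPM (0.108 to 0.2) and 0.129 CPM (0.0918 to 0.176), and *NDN* had a single UMI in each. Over the barcodes with at least 10000 UMIs, *SNRPN* was at 0.0666 and 0.0529 CPM and *NNAT* at 0.129 and 0.132 CPM. The exceptions were *PLAGL1*, with 1.82 and 1.53 CPM, and *DLK1*, with 1.39 and 2.11 CPM. *MKRN3*, among the low ones, differed between the libraries. It had 0.0104 CPM (0.00214 to 0.0303) from 3 UMIs in library 1 and 0.248 CPM (0.195 to 0.311) from 75 UMIs in library 2. FPKM and CPM come from different assays, so a level in one cannot be read as a level in the other.

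At least 1 CPM in both libraries was reached by 38 of the 43 lower members (88.4%), a share slightly under the 94.6% of all genes at 1 FPKM, and by 14 of the 35 other higher members (40.0%). The rule asked for 1 FPKM in both PA-named libraries for the lower members only, so these shares are a description. *LOC110261648* of the *DLK1* domain had 144 and 163 CPM and *MEG3* had 23.0 and 25.9 CPM, far above *DLK1* in both libraries. *GSTM3*, listed at 0 in IVFP25, had 5.24 and 4.66 CPM. Among the other higher members, *S100A6* had 818 and 765 CPM and *SFN* 167 and 169 CPM, whereas *CER1*, a lower member, had 0.356 and 0.298 CPM. *TMEM223* had 0 UMIs in both libraries, for which the limit of 3 UMIs is 0.0104 and 0.00993 CPM, and it shares exons with *NXF1*. In bulk samples fewer cells of a type and less RNA per cell cannot be told apart, and in the summed counts neither can the cell types of the blastoids.

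**Figure D5:**
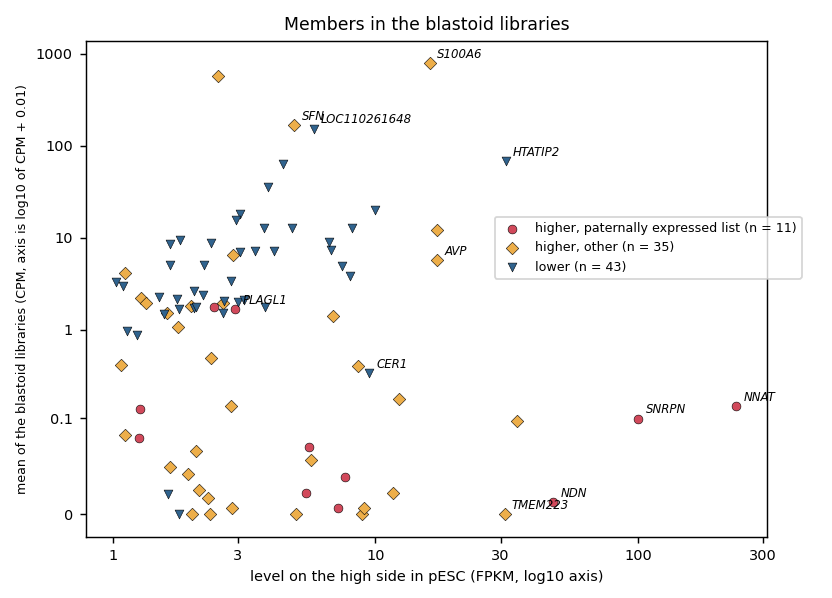
Each point is a member, with its level on the high side in pESCs in FPKM (IVFP25 for higher members, the mean of PA_4P7 and PAP25 for lower ones; log10 x axis) and the mean CPM of the 2 blastoid libraries on an axis of log10(CPM + 0.01). The circles of *NNAT*, *SNRPN* and *NDN* lie at the lower right, below 0.2 CPM, and most lower members (triangles) lie above 1 CPM.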

How the data were processed

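Bulk RNA-seq of 3 pESC libraries and single-cell RNA-seq of 2 day 6 blastoid libraries were used. The authors trimmed the bulk reads with Trim Galore 0.6.4, mapped them to susScr11 with HISAT2 2.2.1 and estimated FPKM with StringTie 2.2.1. The deposited table lists FPKM for 81391 RefSeq transcripts with no read counts, so the depth of these libraries is unknown. The labels and the methods name different library kits and sequencers. The deposited single-cell counts are raw UMI counts of all barcodes, made by the authors with Cell Ranger 7.1.0, and were summed per gene and library here.

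FPKM were summed by gene symbol with pandas 2.3.3. A gene was a member if it was at least 3 times higher, or lower, in IVFP25 than in both other columns, with at least 1 FPKM on the high side (in both PA-named columns for lower genes). Log2 ratios add 0.1 FPKM to each value, except those by chromosome. List medians use genes at 1 FPKM in a library. Coordinates, transcript lengths, exon overlap (bedtools 2.31.1) and upstream sequence come from the RefSeq annotation of Sscrofa11.1, which held 99.9% of the symbols. The rule was run on simulated FPKM with set changes larger than the limit, no weak genes and less spread than between these libraries. That run checks the code only and says nothing of the members. No statistical test was made, since 1 library stands against 2.

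Named in the text are the 12 members with the largest ratio among those with at least 5 FPKM and no LOC symbol, the 8 most abundant in each direction, members on a list, genes of the Y chromosome, *XIST*, the genes nearest the limit and runs of neighbours. Other genes were named after their values were seen. The members and the lists were chosen with earlier results of these data known.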

Additional observations from a re-analysis of the deposited data

How the results depend on the processing

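With 1 library against 2, the counts depended on the limits. A 2-fold limit gave 99 higher and 134 lower genes, and a 5-fold limit 27 and 25. At 5 FPKM on the high side 19 and 6 remained of the members, and with 1 FPKM added to each value 23 and 8. At 0.5 FPKM there were 69 higher and 70 lower genes, and 79 lower genes when 1 of the PA-named libraries had to reach 1 FPKM. Leaving out genes listed at 0 in a library gave 31 higher and 36 lower genes. Without LOC symbols 26 genes were higher. Setting IVFP25 against 1 library in place of both gave 112 to 116 higher and 124 to 306 lower genes, the last of these without PA_4P7. The higher and the lower count thus rest on asking for both libraries, the lower one more so. Rescaling to transcripts per 1000000 (TPM), where 1 unit is a lower level than 1 FPKM, gave 67 higher and 91 lower genes and, as a check added after seeing the data, 739 in place of 415 genes apart between PA_4P7 and PAP25. Rescaling by the median ratio kept 46 of the 46 higher and 41 of the 43 lower members, and using the most abundant transcript only kept 41 and 36.

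Over its 20 genes at 1 FPKM, the median of the paternally expressed list ranged from 1.26 with 1 FPKM added to 3.74 against PA_4P7 alone, and over all 26 measured genes, added after seeing the data, it was 0.86. The median of the X chromosome turned to 0.0064 over genes at 5 FPKM, and that of the IL6, LIF and STAT3 list to 0.0333 against PA_4P7 alone. No paired analysis was possible because the columns carry no replicate numbers and no test was made. The libraries have no known depth, so it is unknown how many fragments stand behind a value near 1 FPKM. The origin and passage in the column names cannot be told apart from the library itself.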
